A study of Mus musculus with 2 samples.

Results

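The 9 genes described here encode structural and closely associated proteins of central myelin: *Mbp*, *Mobp*, *Mog*, *Mag*, *Cnp*, *Mal*, *Cldn11*, *Opalin* and *Aspa*. They were taken by symbol from the gene list of the deposited count matrices, which names 55450 genes, and each symbol matched 1 identifier. The samples were 2 droplet single-cell libraries from the cerebral cortex of C57BL/6 mice aged 2 weeks, 1 labelled Control and 1 labelled cerebral white matter injury (WMI). In the model, the right common carotid artery was ligated under hypoxia for 1 h on postnatal day 7, and the ligated cortex, or the cortex of the same side in control mice, was taken on postnatal day 14. The study itself writes of a control and a WMI side, and also of sham and WMI hemispheres. The source of the control tissue is therefore not settled here. The labels describe a suspension of nuclei, whereas the study's methods describe enzymatically dissociated cells and other ages and hypoxia times, so barcodes are called cells here without settling the point. The number of pooled animals is not given in the labels. The study's methods speak of several replicates per group, whereas the series holds 1 library per condition. Whether replicates were pooled into it is not stated. With 1 library per condition there was no replicate check and no test, and all intervals below are 95% intervals for counting error only.

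Oligodendrocytes (OLs) arise from OL precursor cells (OPCs), pass through a premyelinating stage (pre-OLs) and then wrap axons with compact myelin. Compact myelin is held together on its cytoplasmic side by basic proteins, while adhesion proteins face the axon or the outside of the sheath and claudin strands seal its layers. White matter injury of the preterm brain is known for an arrest of this lineage before myelination.

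*Mbp* and *Mobp* encode the basic proteins of the cytoplasmic side of compact myelin, *Mog* an outer surface glycoprotein, *Mag* an adhesion molecule of the inner, axon-facing membrane and *Cnp* a cyclic nucleotide phosphodiesterase of the non-compact cytoplasmic channels. *Mal* encodes a proteolipid of myelin lipid rafts, *Cldn11* the tight junction protein of the sheath, *Opalin* a transmembrane glycoprotein of OLs, and *Aspa* aspartoacylase, which splits N-acetylaspartate into acetate for lipid synthesis. The genes are scattered over the genome: *Mobp* lies on chromosome 9, *Mog* on 17, *Mag* on 7, *Cnp* and *Aspa* on 11, *Mal* on 2, *Cldn11* on 3 and *Opalin* on 19 (GENCODE M21, whose identifiers matched all 55450 in the matrices). *Mobp* overlaps the gene *Gm38642* on the same strand, so its reads may be shared between both, and *Cnp* overlaps *Dnajc7* on the opposite strand.

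Promoter windows of 300 bases, from 250 before to 50 after the transcription start, were taken from RefSeq (GRCm38.p6) for 8 of the 9 genes. The position and promoter window of *Mbp* are not reported here. The windows of 4 genes are shown because their levels followed different courses through the lineage: *Cnp*, which was already detected in pre-OL-like cells, and *Mobp*, *Opalin* and *Mal*, which were concentrated in mature OL-like cells. Capitals mark matches on either strand to ACAAAG, a core motif of SOX factors, to CTGGCAC, a motif of the myelin regulatory factor MYRF, or to CAGCTG, an E-box; these motifs do not overlap in the windows shown.
Cnp (chr11:100574689-100574988, + strand): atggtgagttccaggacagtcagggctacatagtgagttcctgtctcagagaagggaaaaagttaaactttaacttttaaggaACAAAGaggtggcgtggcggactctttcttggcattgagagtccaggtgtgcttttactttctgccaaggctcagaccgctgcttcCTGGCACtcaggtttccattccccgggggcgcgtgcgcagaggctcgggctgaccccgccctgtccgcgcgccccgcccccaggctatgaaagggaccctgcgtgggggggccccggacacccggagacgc
Mobp (chr9:120149492-120149791, + strand): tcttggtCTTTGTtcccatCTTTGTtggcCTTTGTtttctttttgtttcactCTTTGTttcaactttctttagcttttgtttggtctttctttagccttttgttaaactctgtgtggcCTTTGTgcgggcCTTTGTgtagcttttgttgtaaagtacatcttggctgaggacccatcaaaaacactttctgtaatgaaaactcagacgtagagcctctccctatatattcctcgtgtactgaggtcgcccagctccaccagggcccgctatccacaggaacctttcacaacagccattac
Opalin (chr19:41077064-41077363, - strand): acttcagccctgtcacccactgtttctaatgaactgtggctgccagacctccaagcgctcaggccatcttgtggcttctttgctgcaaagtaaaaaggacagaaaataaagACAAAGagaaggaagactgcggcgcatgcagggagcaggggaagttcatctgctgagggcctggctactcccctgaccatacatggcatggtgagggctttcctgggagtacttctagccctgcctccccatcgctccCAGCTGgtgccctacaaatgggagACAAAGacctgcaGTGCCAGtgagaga
Mal (chr2:127656646-127656945, - strand): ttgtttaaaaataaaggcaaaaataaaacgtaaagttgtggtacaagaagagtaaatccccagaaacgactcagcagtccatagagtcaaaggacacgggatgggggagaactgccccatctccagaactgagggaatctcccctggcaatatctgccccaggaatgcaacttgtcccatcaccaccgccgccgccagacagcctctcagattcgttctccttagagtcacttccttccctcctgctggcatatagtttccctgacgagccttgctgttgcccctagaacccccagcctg
The *Mobp* window held 6 matches to ACAAAG, all read on the reverse strand as CTTTGT, while that of *Opalin* held 2, that of *Cnp* 1 and that of *Mal* none. Of the 10 windows of the 8 genes, 5 held ACAAAG (4 genes), compared with 18.7% of all 32851 promoter windows. CTGGCAC was found in 4 of the 10 windows (3 genes) and in 5.01% of all windows. CAGCTG was found in 2 of the 10 (2 genes) and in 16.3% of all windows. Overlapping windows of *Mag* share 1 match to ACAAAG and 1 to CTGGCAC. A match is a description of letters in the window and not evidence of binding.

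To follow the genes through the lineage without using them to define it, cells were assigned to stages by other markers. *Pdgfra*, *Cspg4* and *Vcan* were among those for OPC-like cells, *Enpp6*, *Bcas1* and *Gpr17* for pre-OL-like cells, and *Ermn*, *Car2* and *Trf* for mature OL-like cells. The control library gave 340 OPC-like, 149 pre-OL-like and 90 mature OL-like cells among 9540 kept cells, and the WMI library gave 530, 440 and 39 among 8113. Of the stage-assigned cells, mature OL-like cells made up 15.5% (control) and 3.87% (WMI), and pre-OL-like cells 25.7% and 43.6%. These shares depended on the assignment: mature OL-like cells made up 17.2% and 7.87% when cells with markers of another class were kept, and 19.1% and 4.68% when stages were taken from clusters built without the 9 genes. Single markers separated the stages to different degrees. *Enpp6* stood at 741 counts per 1000000 UMIs (CPM) in pre-OL-like cells and 15.2 in OPC-like cells of the control library. *Ermn* stood at 84.4 CPM in control mature OL-like cells, with no UMI in the control cells of either earlier stage. *Gpr17*, by contrast, stood at 106 CPM in control pre-OL-like and 73.1 in control OPC-like cells. *Vcan* was higher in WMI pre-OL-like (518 CPM) than in WMI OPC-like cells (455 CPM). *Klk6*, also on the mature list, had no UMI in control mature OL-like cells. Scores used summed UMIs, so abundant markers weighed most. *Lhfpl3* had 10392 UMIs in control OPC-like cells, compared with 871 of *Pdgfra*. *Prr5l* had 1015 UMIs in control mature OL-like cells, compared with 67 of *Ermn*, 58 of *Car2* and 51 of *Trf*. Its level there was 1278 CPM, and 675 CPM in WMI mature OL-like cells, whereas *Trf* went from 64.2 to 154 CPM. UMIs are unique molecular identifiers, each standing for 1 captured RNA molecule.

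The libraries held 66470806 UMIs (control) and 60568639 UMIs (WMI), with medians of 4728 and 5267 UMIs per kept cell, and shared 36 cell barcodes. They differed in *Xist*, the RNA of the inactive X chromosome, which was detected in 5 of the kept control cells (0.0524%) and in 5220 WMI cells (64.3%). Y-linked UMIs were detected in 75.6% of control and 60.7% of WMI cells, so the WMI library held RNA of both sexes. Sex and injury therefore cannot be told apart in a comparison of these libraries. Values restricted to cells with a Y-linked UMI and none of *Xist* are given beside the results. They do not remove this limit, since lack of a *Xist* UMI does not establish the sex of a cell. In mature OL-like cells they rest on 85 control and 11 WMI cells. Excitatory neuron-like cells, a class without myelin of its own, served as the background. Free RNA in droplet data can give UMIs of myelin genes in other cell classes, but the source of those UMIs was not tested here.

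All 9 genes were highest in mature OL-like cells of the 3 stages in both libraries, but they reached that level at different times. *Mbp* stood at 80.2 CPM (interval 68.2 to 93.7) in control OPC-like cells, 2608 (2505 to 2714) in pre-OL-like cells and 6224 (6052 to 6400) in mature OL-like cells. In the WMI library the corresponding levels of *Mbp* were 146 (132 to 161), 2221 (2164 to 2280) and 6343 (6072 to 6622) CPM. The step from OPC-like to pre-OL-like cells was therefore larger for *Mbp* than the step to mature OL-like cells in both libraries, 32.5-fold against 2.39-fold in control and 15.2-fold against 2.86-fold in WMI.

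*Cnp*, *Cldn11* and *Mag* shared this early course. In control cells the pre-OL-like level was 53.8% of the mature level for *Cnp* (37.9 to 75.7), 41.9% for *Mbp* (39.9 to 44.0), 40.8% for *Cldn11* (33.6 to 49.3) and 33.9% for *Mag* (29.9 to 38.3). In WMI cells the same shares were 32.4% for *Cnp*, 35.0% for *Mbp*, 25.2% for *Cldn11* and 13.2% for *Mag*. The intervals of neighbours in the control order overlapped, as did those of *Cnp* (24.2 to 43.7) and *Mbp* (33.3 to 36.8) in WMI, whereas *Mbp*, *Cldn11* (21.4 to 29.8) and *Mag* (11.8 to 14.8) were apart in WMI. The control shares rested in part on 22 of the 149 pre-OL-like cells, which fell into the mature OL cluster and held 66.6% of the *Mag*, 49.7% of the *Cldn11*, 47.3% of the *Mbp* and 26.3% of the *Cnp* UMIs of the stage. With stages from clusters, the control shares were 43.7% for *Cnp* (29.9 to 62.6), 24.3% for *Mbp*, 23.7% for *Cldn11* and 11.3% for *Mag*, and the WMI shares 37.6%, 29.4%, 22.1% and 9.15%.

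*Mobp* and *Mog* were late genes. *Mobp* went from 28.4 CPM in control OPC-like cells (21.5 to 36.9) to 341 in pre-OL-like cells (305 to 381) and 3476 in mature OL-like cells (3348 to 3609), so that the pre-OL-like level was 9.82% of the mature level (8.72 to 11.0). The same 22 cells held 297 of the 316 control pre-OL-like UMIs of *Mobp*, and with stages from clusters the pre-OL level was 26.0 CPM, near the 27.9 CPM of OPCs, and 0.782% of the mature level (0.490 to 1.19). *Mog* stood at 8.63, 39.98 and 1166 CPM in the same order, with a pre-OL-like level of 3.43% of the mature level (2.40 to 4.76). In WMI cells the shares were 5.22% for *Mobp* and 4.31% for *Mog*, and 1.46% and 2.57% with stages from clusters.

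*Opalin*, *Mal* and *Aspa* were mature genes with few UMIs before that stage. *Mal* and *Aspa* were the 2 genes whose pre-OL-like level could not be told from that of excitatory neuron-like cells in either library, while the other 7 were higher in both. With stages from clusters, control *Mobp* in pre-OL cells was at the level of 26.2 CPM found in neuron-like cells. *Aspa* had 9 UMIs in all control OPC-like cells, 1 in control pre-OL-like cells and 283 in the 90 control mature OL-like cells, and 8, 5 and 55 UMIs in the WMI library. *Mal* had 13, 7 and 150 UMIs through the control stages and 7, 2 and 60 through the WMI stages. *Opalin* had 6, 11 and 204 UMIs in control and 5, 9 and 73 in WMI. The mature level of *Opalin* was 21.6-fold the pre-OL-like level in control (11.8 to 44.0) and 63.0-fold in WMI (31.4 to 143).

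**Figure D1:**
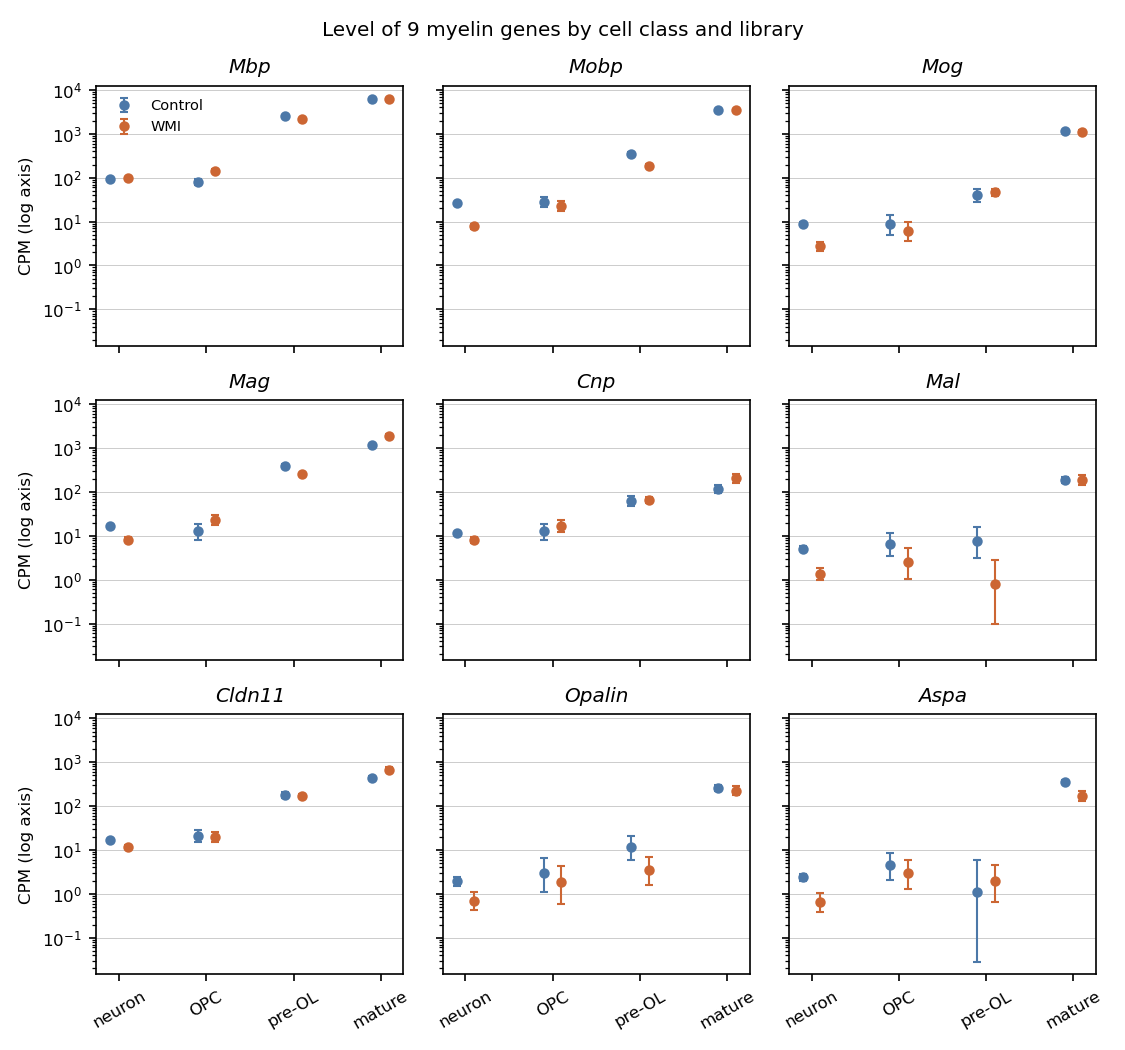
Level of each of the 9 genes in CPM on a log axis, in excitatory neuron-like, OPC-like, pre-OL-like and mature OL-like cells of the Control (blue) and WMI (orange) library; points are levels over summed UMIs and bars are 95% Poisson intervals for counting error. *Mbp*, *Mag*, *Cnp* and *Cldn11* stand well above the neuron level in pre-OL-like cells, whereas *Mal*, *Opalin* and *Aspa* stand above it mainly in mature OL-like cells.

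Counted over the genes with at least 50 UMIs in the 2 stages compared, 6 of 6 were at least 4-fold higher in pre-OL-like than in OPC-like cells of the control library, where 2.52% of all genes tested were. In the WMI library the count was 5 of 6, against 1.78% of all genes, the exception being *Cnp* at 3.90-fold. In control, *Mog*, *Mag*, *Cnp* and *Cldn11* reached 50 UMIs only with those of pre-OL-like cells, so this filter favoured genes that rise. It left out *Mal* (1.15-fold in control), *Opalin* (3.90-fold) and *Aspa* (0.24-fold). Over all 9 genes the counts were 6 of 9 in control and 5 of 9 in WMI. From pre-OL-like to mature OL-like cells, 5 of 9 were at least 4-fold higher in control (all genes 3.19%) and 6 of 9 in WMI (2.35%). The genes past that step in both libraries were *Mobp*, *Mog*, *Mal*, *Opalin* and *Aspa*, and *Mag* was past it in WMI at 7.55-fold and not in control at 2.95-fold. With stages from clusters this difference in *Mag* was not seen, at 8.88-fold in control (7.38 to 10.8) and 10.9-fold in WMI (9.79 to 12.2). With the same filter, the clusters gave 3 of 5 genes at least 4-fold higher in pre-OL than in OPC cells of the control library (all genes 1.97%). *Cnp* was at 3.79-fold there and *Mobp* at 0.93-fold (0.55 to 1.53). In WMI the clusters gave 6 of 6 (1.80%). From pre-OL to mature OL clusters 8 of 9 were past 4-fold in control (4.42%) and 7 of 9 in WMI (2.70%).

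Counts per cell in the mature stage were highest for *Mbp* and lowest for *Mal* and *Cnp* in control. A median mature OL-like cell of the control library held 56.5 UMIs of *Mbp*, 30.5 of *Mobp*, 9.5 of *Mog*, 8 of *Mag*, 3 of *Cldn11*, 2 of *Opalin*, 2 of *Aspa*, 1 of *Mal* and 1 of *Cnp*. In the WMI library the medians were 42 for *Mbp*, 16 for *Mobp*, 9 for *Mog*, 12 for *Mag*, 4 for *Cldn11*, 1 for *Opalin*, 0 for *Aspa*, 1 for *Mal* and 1 for *Cnp*. *Mag* ranked above *Mog* in WMI and below it in control. Quartiles of *Mobp* were 5.5 and 53.5 UMIs in WMI compared with 20 and 42 in control, a wider spread, whereas those of *Aspa* were 0 and 2 in WMI compared with 0 and 5. The median depth of mature OL-like cells was 8137 UMIs in control and 6535 in WMI.

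Detection of several genes in the same cell separated the stages. With all UMIs, the median number of the 9 genes with a UMI was 1 in OPC-like cells of both libraries, 3 (control) and 2 (WMI) in pre-OL-like cells, and 8 and 7 in mature OL-like cells. At least 5 of the 9 genes were detected in 84 of 90 control mature OL-like cells (93.3%, exact binomial interval 86.1 to 97.5) and in 33 of 39 WMI cells (84.6%, 69.5 to 94.1). The share was 10.7% of control and 5.91% of WMI pre-OL-like cells, and 0.246% and 0.117% of excitatory neuron-like cells. After each cell was thinned to 1000 UMIs, the share among mature OL-like cells was 41.1% in control (30.8 to 52.0) and 48.7% in WMI (32.4 to 65.2). Within the mature OL-like cells, 3 of 90 control cells and 5 of 39 WMI cells had a UMI of only 1 of the 9 genes. These cells passed on the other mature markers and were kept in every sum, since removing them would have used the genes under study.

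**Figure D2:**
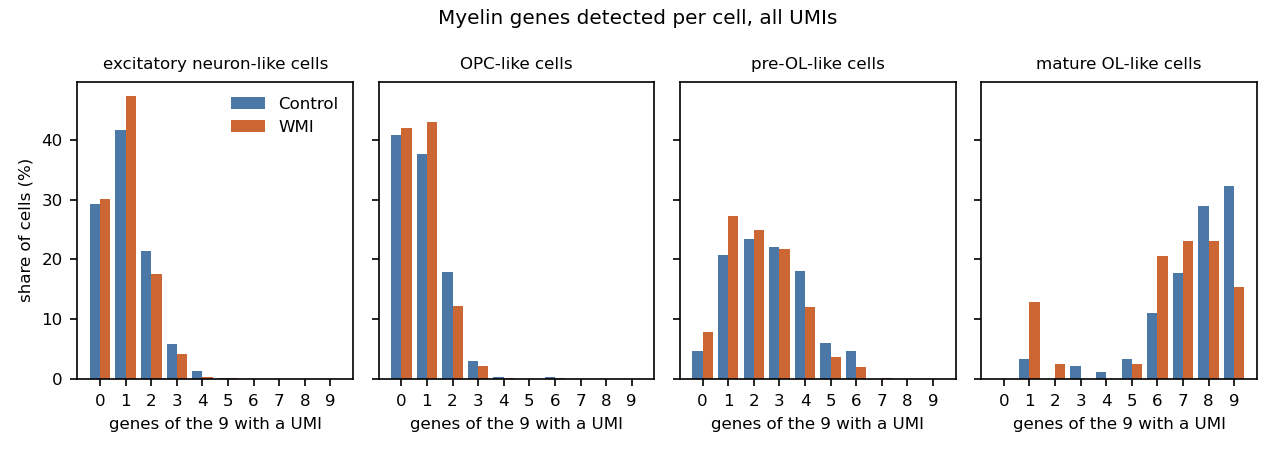
Share of cells (%) by the number of the 9 genes with at least 1 UMI, at full depth, in 4 cell classes of the Control (blue) and WMI (orange) library. Neuron-like and OPC-like cells pile up at 0 and 1 gene, and mature OL-like cells centre on 8 genes in Control and 7 in WMI, with a small group of WMI cells at 1.

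The WMI and control libraries were then compared within each stage. This asks whether each myelin transcript made up the same share of the summed UMIs of a stage, and not whether single cells carried the same amount. In mature OL-like cells, 5 of the 9 genes had an interval of the ratio that included no difference, among them the 2 most abundant. *Mbp* stood at 6224 CPM in control and 6343 in WMI, a log2 ratio of WMI to control of 0.03 (-0.05 to 0.10), and *Mobp* at 3476 and 3528, a log2 ratio of 0.02 (-0.08 to 0.12). The log2 ratios were -0.11 (-0.29 to 0.07) for *Mog*, -0.04 (-0.49 to 0.41) for *Mal* and -0.20 (-0.60 to 0.20) for *Opalin*. The intervals of *Mal* and *Opalin* are wide enough to hold differences of over 1.3-fold. After thinning to equal depth, which left 8 control and 11 WMI UMIs of *Opalin*, its log2 ratio was 1.67, and that of *Mobp* was -0.54 from 311 and 93 UMIs. The near equality of *Mbp* and *Mobp* depended on leaving out cells with markers of another class. With those cells kept, their log2 ratios were -0.85 and -0.89. Means of per-cell levels gave -0.15 and -0.29, whereas stages from clusters gave 0.13 for *Mobp*.

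The other 4 genes were past 1.5-fold, with 3 higher and 1 lower in WMI. *Mag* stood at 1145 CPM in control and 1882 in WMI (1.64-fold, 1.48 to 1.82), *Cnp* at 115 and 203 (1.77-fold, 1.27 to 2.45) and *Cldn11* at 432 and 678 (1.57-fold, 1.32 to 1.87). *Aspa* stood at 356 CPM in control and 169 in WMI, 2.11-fold lower (1.58 to 2.87), and was detected in 68.9% of control and 41.0% of WMI mature OL-like cells. Among the 3567 genes tested in this stage, 6.81% were at least 1.5-fold higher and 15.4% at least 1.5-fold lower in WMI. The median log2 ratio was 0.02 over the 9 genes and -0.09 over all genes tested. The 5 cells with the most UMIs of each gene held 38.3% of the *Mbp*, 41.3% of the *Mobp*, 37.8% of the *Mag*, 47.0% of the *Cnp* and 54.5% of the *Aspa* UMIs of the 39 WMI cells. In cells with a Y-linked UMI and no *Xist* (85 control and 11 WMI cells), the log2 ratio was -1.18 for *Aspa*, 0.59 for *Mag*, 0.14 for *Mbp* and 0.077 for *Cnp*, and the median over the 9 genes was -0.15. When cells that also carried markers of another class were kept, the stage grew to 111 control and 96 WMI cells, *Mag* and *Cldn11* changed direction with log2 ratios of -0.14 and -0.18, *Cnp* had a log2 ratio of 0.030, and the median over the 9 genes was -0.85.

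**Figure D3:**
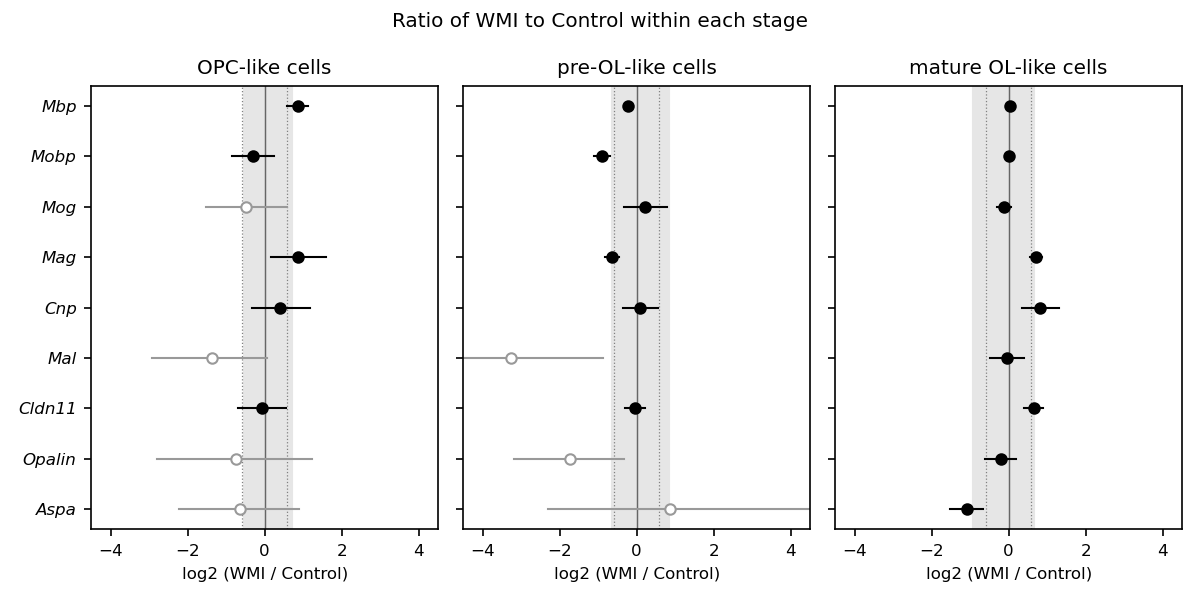
Log2 ratio of WMI to Control for each gene in OPC-like, pre-OL-like and mature OL-like cells; lines are 95% intervals for counting error, cut at the axis limits, and open grey points mark genes under 50 UMIs in that stage. The grey band holds the middle 90% of all genes tested in the stage and dotted lines mark 1.5-fold. In mature OL-like cells *Mbp*, *Mobp*, *Mog*, *Mal* and *Opalin* sit at 0 within their intervals. *Aspa* lies left of the band there, and *Mag* and *Cnp* lie right of it.

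In pre-OL-like cells, 2 of the 6 genes with at least 50 UMIs were past 1.5-fold and both were lower in WMI. *Mobp* stood at 341 CPM in control and 184 in WMI, 1.85-fold lower (1.60 to 2.14), and *Mag* at 388 and 249, 1.56-fold lower (1.36 to 1.77). *Mbp* was 1.17-fold lower (1.12 to 1.23), and the intervals of *Mog*, *Cnp* and *Cldn11* included no difference. None of the 6 genes was at least 1.5-fold higher, against 10.4% of the 7864 genes tested, and 6.12% of all genes were at least 1.5-fold lower. The median log2 ratio was -0.23 over the 9 genes, -0.14 over the 6 tested and 0.05 over all genes tested.

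In cells with a Y-linked UMI and no *Xist* (127 control and 118 WMI cells), the log2 ratio was -0.74 for *Mobp* and -0.55 for *Mag*.

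Much of the *Mobp* and *Mag* of this stage lay in cells at its border with mature OL-like cells. Beside the 22 control cells (14.8%) named above, 8 of 440 WMI pre-OL-like cells (1.82%) fell into the mature OL cluster. The WMI cells held 338 of the 466 UMIs of *Mobp*, 28.1% of those of *Mag* and 10.5% of those of *Mbp*. With the stages taken from the clusters, *Mobp* stood at 26.0 CPM in control (16.3 to 39.3) and 53.0 in WMI (44.8 to 62.3) pre-OL cells, and the log2 ratios were 1.03 for *Mobp*, 0.28 for *Mag* and 0.30 for *Mbp*, all opposite in direction. A split of the pre-OL-like cells by their remaining OPC markers, added after the data had been seen, put 47.0% of control and 61.1% of WMI pre-OL-like cells in an early part. Within the late part *Mbp* stood at 3750 CPM (control) and 3741 CPM (WMI), with a fold of 1.00 (0.94 to 1.05), and *Mobp* at 585 and 446. Within the early part *Cldn11* stood at 52.1 CPM from 21 UMIs in control and 98.6 from 150 UMIs in WMI, 1.89-fold higher (1.19 to 3.15).

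In OPC-like cells of the control library none of the 9 genes had a level whose interval against excitatory neuron-like cells excluded equality: *Mbp* stood at 80.2 CPM in OPC-like and 92.9 in neuron-like cells, *Mobp* at 28.4 and 26.2, and *Cldn11* at 20.8 and 16.8. In the WMI library 7 of 9 were higher in OPC-like cells, for example *Mbp* at 146 CPM against 101 and *Mobp* at 23.0 against 7.91. A single WMI OPC-like cell held 29 of the 63 UMIs of *Mobp*, and the most *Mbp* in such a cell was 47 of 399 UMIs. With stages from clusters, WMI OPCs stood nearer the neuron level, at 111 CPM for *Mbp* (99.1 to 125) and 11.5 for *Mobp* (7.79 to 16.3). The neuron level was not the highest background of the WMI library, since 7 of 9 were also above it in WMI microglia or macrophage-like cells, with *Mbp* at 173 and *Mobp* at 25.7 CPM. Neither count of 7 has a share over all genes beside it, so both describe these genes only. In the barcodes left out for low UMIs, *Mbp* stood at 350 CPM in control (302 to 404) and 341 in WMI (253 to 450.1). Between the libraries, *Mbp* was 1.82-fold higher in WMI OPC-like cells (1.51 to 2.20) and *Mag* 1.81-fold higher (1.13 to 3.01), 2 of the 5 genes tested, while 7.94% of all 9227 genes tested were at least 1.5-fold higher and 4.12% lower. None of the 5 was at least 1.5-fold lower. For *Mag*, 1 WMI cell held 30 of the 63 UMIs, and its direction turned in 5 of 11 alternatives, with a log2 ratio of -0.45 with stages from clusters. *Mbp* was then at 0.44, under 1.5-fold and its lowest value among the alternatives. In cells with a Y-linked UMI and no *Xist* (281 control and 135 WMI cells), the median log2 ratio over the 9 genes was -0.82. There *Mobp* was at -3.27, *Cldn11* at -0.92, *Cnp* at -0.82 and *Mag* at -0.21. For *Mbp* the share of cells with a UMI after thinning was 6.76% in control (4.34 to 9.98) and 12.8% in WMI (10.1 to 16.0) OPC-like cells, while in excitatory neuron-like cells it was 12.1% and 11.3%. The median log2 ratio was -0.30 over the 9 genes and 0.41 over the 5 tested, the 4 left out having between 11 and 34 UMIs, against 0.05 over all genes.

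In the sum over all OL-lineage cells, in which the stages had unequal shares between the libraries, the late and mature genes had the lowest ratios. *Mobp* stood at 849 CPM in control and 300.0 in WMI, a log2 ratio of -1.50 (-1.59 to -1.41), *Opalin* had a log2 ratio of -1.95 (-2.32 to -1.58) and *Aspa* of -2.71 (-3.11 to -2.32). The 5 genes at least 1.5-fold lower were *Mobp*, *Mog*, *Mal*, *Opalin* and *Aspa*, the genes of the mature stage, against 6.63% of all 11757 genes tested. *Mbp* and *Mag*, which pre-OL-like cells already carried, had log2 ratios of -0.49 and -0.58, *Cldn11* of -0.23, and *Cnp* of 0.08 (-0.19 to 0.37). *Mag* was 1.4996-fold lower, just short of the cut, so its place outside the 5 genes rests on the threshold. With the 3 stages given equal weight in both libraries, the median log2 ratio over the 9 genes went from -1.50 to -0.04, and *Mag* and *Cldn11* changed direction to 0.48 and 0.47. In sums over cells, fewer cells of a stage and less RNA per cell cannot be told apart, and the counts of cells per stage come from 1 library each.

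Cells outside the 3 stages held a large part of the UMIs of these genes. The 3 stages numbered 579 of the 9540 kept control cells and held 52.6% of the UMIs of the 9 genes (52.0 to 53.2), and the 1009 stage cells of the WMI library held 54.7% (54.1 to 55.3). The rest includes unassigned cells, which held 15.6% and 19.6%, and among these the OL cells left out for markers of another class held 0.701% (65 control cells) and 3.81% (211 WMI cells). Mature OL-like cells accounted for 39.0% of these UMIs in control and 19.9% in WMI, and pre-OL-like cells for 12.4% and 31.9%. The share differed by gene: the 3 stages held 60.6% of the control UMIs of *Mobp* and 18.6% of those of *Cnp*, of which excitatory neuron-like cells held 49.0%. The latter cells held 61.0% of the UMIs of all genes in kept control cells.

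The background itself differed between the libraries and by gene. In excitatory neuron-like cells *Mbp* stood at 92.9 CPM in control and 101 in WMI, a log2 ratio of 0.12 (0.05 to 0.19), whereas *Mobp* stood at 26.2 and 7.91 (-1.73, -1.95 to -1.52), *Mog* at 9.01 and 2.76 (-1.71, -2.09 to -1.34) and *Mal* at 5.08 and 1.36 (-1.90, -2.44 to -1.39). *Mbp* made up 50.9% of the UMIs of the 9 genes in control and 70.9% in WMI neuron-like cells. In the barcodes left out for low UMIs it made up 45.8% (40.9 to 50.7) and 59.5% (48.3 to 70.1). The genes with the lowest ratios in neuron-like cells were genes of the mature stage, as in the sum over the lineage. In WMI microglia or macrophage-like cells, which numbered 1279, *Mbp* stood at 173 CPM, and 1 cell held 124 UMIs of the 9 genes.

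*Aspa* and *Cldn11* were above the neuron level in fibroblast-like and astrocyte-like cells of both libraries, *Aspa* by the larger folds. *Aspa* stood at 177 CPM in control fibroblast-like cells (120 to 251, 24 cells) and 123 in WMI (67.2 to 206, 21 cells). In astrocyte-like cells it stood at 20.1 (15.1 to 26.3) and 22.3 (17.2 to 28.3) CPM, against 2.36 and 0.66 in excitatory neuron-like cells. Astrocyte-like cells held 9.93% of the *Aspa* UMIs of the control library and 25.1% of those of the WMI library. *Cldn11* stood at 57.0 CPM (27.3 to 105) and 61.4 CPM (24.7 to 127) in the same fibroblast-like cells. Its levels were 24.6 and 19.9 CPM in astrocyte-like cells, against 16.8 and 11.7 in excitatory neuron-like cells.

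**Figure D4:**
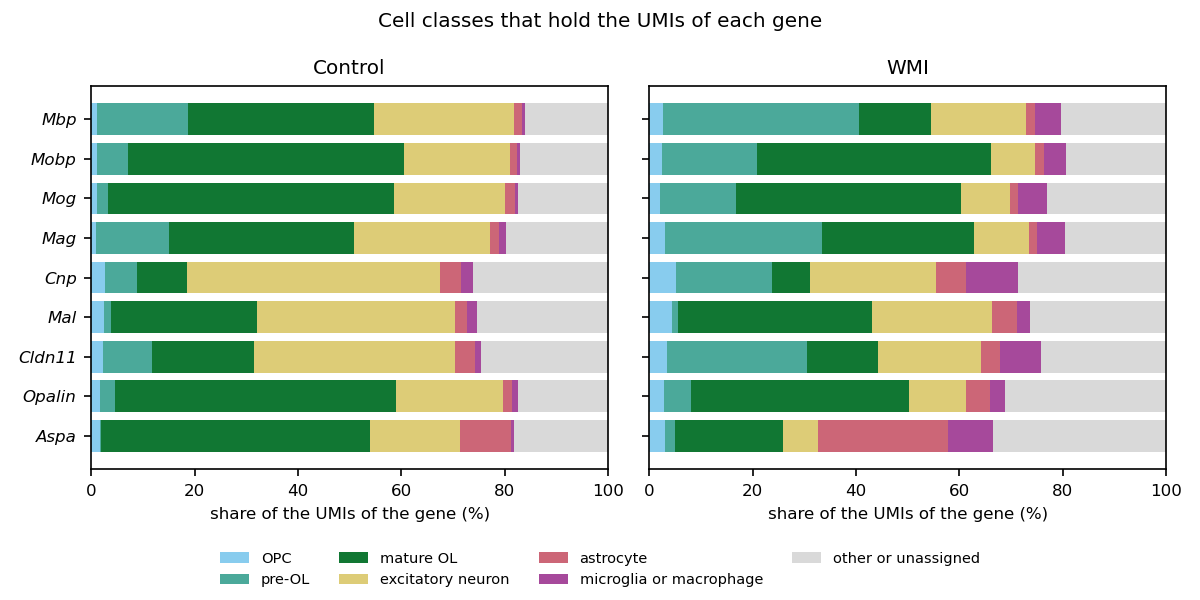
Share (%) of the UMIs of each gene held by each cell class in the Control and WMI library; each bar sums to 100%. The mature OL-like part (dark green) is the largest OL part of every gene in Control. The pre-OL-like part (teal) is larger in WMI than in Control for each gene except *Mal*. Within WMI the mature OL-like part is still the larger for *Mobp*, *Mog*, *Mal*, *Opalin* and *Aspa*. *Aspa* alone has a broad astrocyte-like part (25.1% in WMI).

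Across 10 cell classes of both libraries (20 points), *Mog* and *Opalin* followed the mean of the other members most closely, with Pearson's r of log2(CPM + 1) of 0.94 and 0.92, and *Aspa* least, at 0.56. These points share libraries and depth, and may share free RNA, so that r is a description. Outside the 9 genes, the profiles most like their mean among 6369 genes were those of *Gm38642* (r of 0.96), which overlaps *Mobp*, *Nipal4* (0.94), *Sec14l5* (0.93), *Prima1* (0.92), *Insc* (0.92), *Onecut2* (0.92), *Gm26834* (0.92), *Tmeff2* (0.89), *1700047M11Rik* (0.89) and *Ninj2* (0.88). *Sec14l5* stood at 669 CPM in control mature OL-like and 6.48 in pre-OL-like cells, a late course like that of *Opalin*. *Onecut2*, a homeodomain transcription factor, stood at 280 CPM in control and 675 in WMI mature OL-like cells.

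Of 12 other structural and junction genes of myelin, 7 were tested in mature OL-like cells, with 1 at least 1.5-fold higher in WMI (all genes 6.81%) and none lower (15.4%). The highest ratio was that of *Pllp*, a proteolipid known as plasmolipin, at 91.9 CPM in control and 154 in WMI (log2 ratio 0.74, 0.19 to 1.28). The lowest was that of *Gjc3*, a connexin, at 364 and 273 CPM (-0.41, -0.77 to -0.07). In pre-OL-like cells 8 genes of the list were tested. *Cd9* alone was at least 1.5-fold higher (0.65, all genes 10.4%) and *Tspan2* alone lower (-0.85, all genes 6.12%). In OPC-like cells 8 were tested and *Cd9* alone was past that fold, higher at 0.81 (all genes 7.94%). *Cd9* was also higher in WMI excitatory neuron-like cells, at 26.2 CPM compared with 12.8 in control. Of 9 genes of myelin lipid synthesis, 7 were tested in mature OL-like cells and 2 were higher, *Scd2*, a fatty acid desaturase, at 146 and 329 CPM and *Elovl7*, a fatty acid elongase, at 448 and 718 CPM, with none past 1.5-fold lower and *Gal3st1* lowest at -0.41. In OPC-like cells 3 of 7 lipid genes were higher, *Cers2*, *Scd2* and *Gal3st1*, where 7.94% of all genes were, and in pre-OL-like cells 1 of 7, *Degs1*, against 10.4%. The median log2 ratios in mature OL-like cells were 0.16 for the structural list, 0.41 for the lipid list and -0.21 for the regulators, beside -0.09 over all genes. Of 8 regulators of myelin genes, 5 were tested in mature OL-like cells and none was past 1.5-fold in either direction. *Myrf* stood at 133 CPM in control and 92.1 in WMI mature OL-like cells (-0.54, -1.17 to 0.06), and *St18* at 3633 and 3684. In OPC-like cells 3 of 8 regulators were at least 1.5-fold higher in WMI, *St18*, *Olig1* and *Olig2*, with log2 ratios of 1.54, 1.10 and 0.71 (all genes 7.94%), and *Sox10* was lower at -0.61 (4.12%). *St18* stood at 27.4 CPM in control OPC-like and 1945 in control pre-OL-like cells. Most pre-OL markers used for scoring were also higher in WMI OPC-like cells. These were *Enpp6* (15.2 and 65.0 CPM), *Nkx2-2* (22.8 and 52.2), *Gpr17* (73.1 and 137), *Tcf7l2* (135 and 209), *Bmp4* (18.8 and 28.9), *Bcas1* (386 and 472) and *Fyn* (400 and 465). Only *Neu4* (53.8 and 39.1) and *Itpr2* (472 and 442) were lower. Whether cells near the pre-OL stage account for these ratios was not tested. In pre-OL-like cells *Zfp536* was the only regulator of 8 tested past 1.5-fold, lower with a log2 ratio of -0.79 (all genes 6.12%).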

How the data were processed

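Deposited UMI counts per gene and barcode of 2 droplet libraries were used as the authors left them. Per the file headers they were made with Cell Ranger 6.1.1, and the submitters' processing notes name Seurat and the build mm9 without a role, although all 55450 gene identifiers match GENCODE M21. The 9 genes, the marker lists and the pathway lists were chosen with earlier results of these data known. Cells with at least 1000 UMIs, at least 500 genes and at most 10% mitochondrial UMIs were kept. Each cell was scored by the summed UMIs of each marker list, relative to the mean of the 50 highest cells. A stage needed 0.2 of that level (0.1 for the mature list), and cells with markers of another class were left out of the stages (65 control and 211 WMI cells). No doublet caller was run. The scoring rule was set after marker values, but not values of the 9 genes, had been seen, and 7 broad markers were left out of it. Levels are UMIs per 1000000 UMIs over summed cells, with exact Poisson intervals. Shares have exact Clopper-Pearson intervals and ratios have intervals from a conditional binomial. Genes with at least 50 UMIs over both groups were compared, called means past 1.5-fold (between libraries) or 4-fold (between stages), and a 0 was set against a floor of 3 counts. Named genes were the 9 genes, the 10 genes most like them and the highest and lowest of the lists. A gene of the structural list is not reported here and was left out of its counts. No test was run with 1 library per condition. Intervals of ratios were checked on simulated Poisson counts. That is the model they assume, so the check does not cover UMIs gathered in few cells, as seen here. Alternatives covered depth, mitochondrial, margin, cluster, scaling, thinning, background and sex choices. Python 3.11.15, numpy 2.4.6, pandas 2.3.3, scipy 1.17.1, scanpy 1.11.5 and matplotlib 3.10.9 were used.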

Additional observations from a re-analysis of the deposited data

How the results depend on the processing

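Of the 39 alternative values of the median log2 ratio within stages, 28 lay within the counting interval of the middle gene of the 9, since the median has no interval of its own. That interval is wide in OPC-like cells, from -0.85 to 0.24. For mature OL-like cells, the reported median of 0.02 became -0.85 with cells carrying markers of another class kept, -0.15 in cells with a Y-linked UMI and none of *Xist* (85 control and 11 WMI cells), and 0.22 with the mature list at 0.2 or above, an alternative added after the data had been seen. For pre-OL-like cells, the reported -0.23 became -0.67 with a margin of 2 between lists, 0.28 with clusters, -0.62 with the neuron level subtracted and -0.095 in cells with a Y-linked UMI and none of *Xist*. Added after the data had been seen, equal weight of early and late cells gave 0.023 and restriction to genes with at least 50 UMIs gave -0.14. For OPC-like cells, the reported -0.30 became 1.14 with the neuron level subtracted and 0.41 for genes with at least 50 UMIs. It became -0.82 in cells with a Y-linked UMI and none of *Xist* (281 control and 135 WMI cells). With stages at equal weight the lineage median was -0.043. At a fold of 2, 1 gene was past it in mature OL-like cells and 0 in each of the earlier stages, and with at least 200 UMIs 1 was past 1.5-fold in OPC-like cells.

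Of 247 alternative values of single genes, 44 had the opposite sign to the reported value, 32 of them for ratios whose reported interval included 0. Of those 32, 18 lay outside the reported interval, among them mature *Opalin* at 1.67 and *Mobp* at -0.54 after thinning, *Mal* at 0.42 with per-cell means, and *Cnp* at -0.82 in OPC-like cells with a Y-linked UMI and none of *Xist*. Ratios whose reported interval lay wholly to one side of 0 turned direction as follows. With cells of mixed markers kept, *Mag* was -0.14 and *Cldn11* -0.18 in mature OL-like cells. With clusters, pre-OL values were 0.30 for *Mbp*, 1.03 for *Mobp* and 0.28 for *Mag*, and *Mbp* was 0.11 in early cells alone and 0.023 at equal weight of early and late cells. In OPC-like cells *Mag* was -0.057 at no more than 2% mitochondrial UMIs, -0.24 with the margin, -0.45 with clusters, -0.18 after thinning and -0.21 in cells with a Y-linked UMI and none of *Xist*. With stages at equal weight *Mag* was 0.48 and *Cldn11* 0.47 over the lineage. *Aspa* kept its direction in mature OL-like cells under all 12 alternatives, between -1.70 and -0.68. Of 54 shares of cells with a UMI, 42 moved past their intervals without thinning. The cause of the other shifts was not tested. No paired analysis was possible because there was 1 library per condition and no test. The 39 WMI mature OL-like cells limit every value of that stage.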
